A study of Mus musculus with 12 samples.

Results

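Micelle delivery of a drug combination was compared with the same combination given as free drugs, by DNA methylation, in PKD1-Het cells. The comparison was made on 717065 CpGs that had 5 or more reads in all 6 libraries, of 6806584 CpGs listed in any of them. It took 6 of the 12 libraries of the series: 3 of F-MTAza, the free drugs, and 3 of NP-MTAza, the drugs in micelle nanoparticles. Both groups received metformin at 300 µM, tolvaptan at 10 µM and Aza (5-aza-2′-deoxycytidine) at 50 µM for 24 h, so that only the delivery differed by design. The 3 PBS libraries, from cells with no drug, were used here mainly to say how methylated each CpG was without treatment. They also served beside the relation of total reads and level, and in an alternative setting of the promoter test.

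PKD1-Het cells are proximal renal tubule epithelial cells, heterozygous for Pkd1, from Pkd1 flox/-:TSLargeT mice, whose cells carry a large T antigen transgene, and all groups were used at passage 3. In the micelles, metformin was attached to the shell, and Aza and tolvaptan were loaded in the core. Cells given micelles without drug were not analysed here, so the carrier and the way the drugs were delivered cannot be told apart. Methylation gives no check of the cell type by expressed markers. The labels number the replicates 1 to 3 without saying that they were separate cultures, so each p-value measures the spread between these libraries, which may be technical.

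DNA methylation in mammals sits mostly on the cytosine of CpG dinucleotides and is copied to the new strand after replication by the methyltransferase DNMT1. Aza is a cytidine analog that enters replicating DNA and traps methyltransferases, so that methylation is lost as cells copy their genome. Metformin acts through the energy sensor AMPK, and tolvaptan blocks the vasopressin V2 receptor. Free Aza enters cells through nucleoside transporters, whereas micelles are generally taken up by endocytosis.

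The NP-MTAza libraries had a slightly lower methylation level than the F-MTAza libraries. A level is the percent of reads that were methylated at a CpG, averaged with equal weight over the 717065 CpGs. It was 43.6%, 42.8% and 43.7% in F-MTAza replicates 1 to 3, and 42.3%, 42.6% and 41.3% in NP-MTAza replicates 1 to 3. All 3 NP-MTAza libraries were below all 3 F-MTAza libraries, with a gap of 0.276 points between the lowest free and the highest micelle library. The group means were 43.4% ± 0.462 and 42.0% ± 0.688 (SD, n = 3), a difference of -1.35 points (SE 0.478; two-sided exact permutation p = 0.1, the smallest that 3 libraries against 3 allow). Over the 470027 of these CpGs that also had 5 reads in each PBS library, PBS was at 64.8% ± 0.806, F-MTAza at 43.4% and NP-MTAza at 42.0%. The distance between both deliveries was thus small beside that of either from untreated cells.

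**Figure D1:**
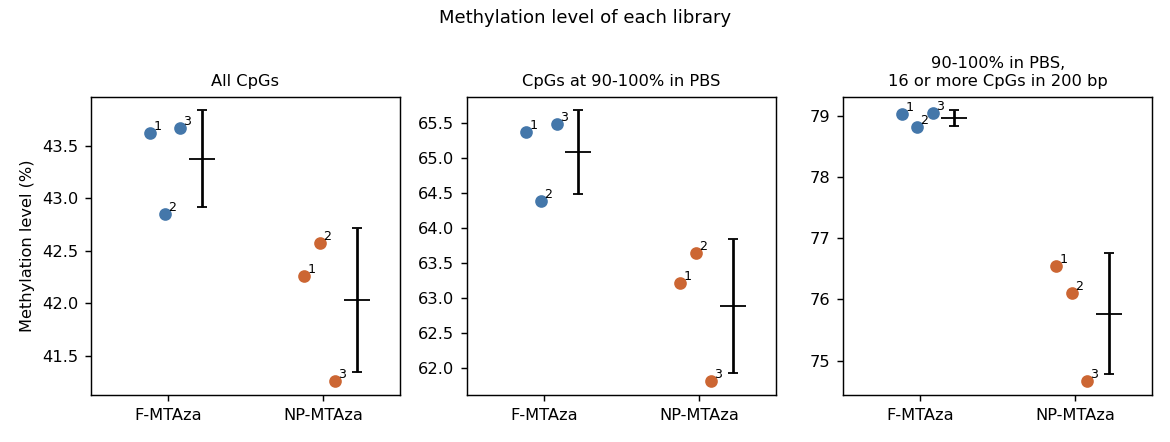
Methylation level in percent (vertical axes, which do not start at 0) of each F-MTAza library (blue) and NP-MTAza library (orange), numbered by replicate, with the group mean and SD (n = 3) as black bars. Over all CpGs the F-MTAza libraries lay between 42.8% and 43.7% and the NP-MTAza libraries between 41.3% and 42.6%, and the right panel shows CpG-dense CpGs at 90-100% in PBS, where the groups stood farther apart.

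To show what was read, the mm9 sequence of a CpG-sparse and a CpG-dense stretch is printed, 5′ to 3′ on the plus strand, with the tested CpGs in capitals. Both were picked because every tested CpG was at 90-100% in PBS and their differences lay closest to the mean of their density class.
Sparse stretch, intergenic, 33593 bp from the start of Got1, chr19:43632589-43632788: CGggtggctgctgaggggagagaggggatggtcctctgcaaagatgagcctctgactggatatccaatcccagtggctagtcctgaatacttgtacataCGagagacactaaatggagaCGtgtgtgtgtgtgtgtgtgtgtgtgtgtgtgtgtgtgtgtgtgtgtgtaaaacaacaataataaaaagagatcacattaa
Dense stretch, exonic in Runx1, a transcription factor gene of blood formation, chr16:92606142-92606341: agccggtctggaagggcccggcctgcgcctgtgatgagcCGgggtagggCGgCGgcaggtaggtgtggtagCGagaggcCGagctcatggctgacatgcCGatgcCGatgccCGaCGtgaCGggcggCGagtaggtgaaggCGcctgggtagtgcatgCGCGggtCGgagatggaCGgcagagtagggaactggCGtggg

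The sparse stretch holds 3 CpGs, all tested, and the dense stretch 21, of which 17 were tested. Levels of the sparse stretch were 65.2%, 65.5% and 65.8% in F-MTAza and 78.2%, 61.4% and 51.8% in NP-MTAza. Those of the dense stretch were 76.1%, 76.5% and 84.5% in F-MTAza and 64.8%, 83.0% and 79.6% in NP-MTAza. At single stretches the libraries overlapped and varied by many times the mean difference, at 16.1 and 16.8 reads per CpG and library. The differences below therefore rest on averages over many CpGs.

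The difference was not the same at all CpGs: it grew with the level the CpG had in PBS. CpGs at 0-10% in PBS, most of them in unmethylated CpG-rich sequence, were at 1.44% in F-MTAza and 1.39% in NP-MTAza. Their difference was -0.0557 points (SE 0.0573). It was -0.183 points (SE 0.209) at CpGs of 10-25%, -0.587 (SE 0.344) at 25-50%, -1.07 (SE 0.549) at 50-75% and -1.53 (SE 0.666) at 75-90%. In the lower 4 classes the libraries of both groups overlapped. Without NP-MTAza replicate 3, the lowest library, the differences from 0-10% to 75-90% came to -0.00851, -0.0309, -0.318, -0.646 and -0.985 points.

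CpGs at 90-100% in PBS, 309520 in number, showed the largest difference of the 6 classes. Their levels were 65.4%, 64.4% and 65.5% in F-MTAza and 63.2%, 63.6% and 61.8% in NP-MTAza, with no overlap. The difference was -2.19 points (SE 0.654; exact permutation p = 0.1). It was -1.65 points without NP-MTAza replicate 3 (exact permutation p = 0.2). These CpGs made up 43.2% of the set and 70.1% of its total difference. As a ratio, the level in NP-MTAza was 0.966 of that in F-MTAza at 90-100%, 0.972 at 75-90%, 0.974 at 50-75%, 0.976 at 25-50%, 0.984 at 10-25% and 0.961 at 0-10%. On that scale the classes stood closer together than on the scale of points.

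Within each library, the level of the 90-100% class minus that of the 50-75% class was 24.0, 24.2 and 24.3 points in F-MTAza and 23.2, 23.2 and 22.8 points in NP-MTAza. The difference in points was thus larger by 1.12 in the more methylated class (coded as -1.12, SE 0.152), with no overlap between groups. The exact permutation p was 0.1, and 0.25 after Benjamini-Hochberg adjustment over 5 such contrasts. No such test of 3 libraries against 3 can pass 0.05.

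CpG density went with the difference among CpGs methylated in PBS. Density was counted as CpG dinucleotides in the 200 bp around each CpG, itself included. Over all CpGs the difference had no such order, with -1.03 points at 1-3 CpGs, -1.48 at 4-6, -1.78 at 7-10, -1.37 at 11-15 and -0.978 at 16 or more, where the level in PBS was 29.3% against 70.2% at 1-3. Within the 90-100% class the difference was -1.70 points (SE 0.597) at 1-3 CpGs, -2.07 (SE 0.662) at 4-6, -2.53 (SE 0.753) at 7-10, -2.68 (SE 0.732) at 11-15 and -3.19 (SE 0.573) at 16 or more. Each step to denser sequence showed a larger difference, and in none of the 5 did the groups overlap.

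The densest methylated CpGs separated the groups most clearly against their spread. Over 15928 CpGs, the levels were 79.0%, 78.8% and 79.0% in F-MTAza, a spread of 0.129 points (SD), and 76.5%, 76.1% and 74.7% in NP-MTAza (SD 0.984). The gap between the nearest libraries was 2.27 points. These CpGs kept more methylation than sparse ones in both groups, 79.0% and 75.8% against 60.4% and 58.7% at density 1-3. The loss from PBS was 18.1 points in F-MTAza and 21.3 points in NP-MTAza, a ratio of 1.18, whereas the ratio of losses at density 1-3 was 1.05.

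Within each library, CpGs of density 1-3 stood below those of density 11 or more by -13.9, -14.8 and -14.3 points in F-MTAza and by -13.6, -13.1 and -12.7 points in NP-MTAza. This step between sparse and dense CpGs of the class was smaller by 1.19 points (SE 0.388) in NP-MTAza, without overlap (exact permutation p = 0.1, adjusted 0.25). With 10 reads in all 6 libraries the step was smaller by 0.779 points and the groups overlapped (p = 0.2, exact permutation). Without F-MTAza replicate 2 or NP-MTAza replicate 3 it was smaller by 0.977 and 0.978 points (exact permutation p = 0.2 for each). The order by density was also seen in CpGs at 50-75% in PBS, from -0.528 points (SE 0.591) at 1-3 to -2.05 (SE 0.628) at 16 or more. At 75-90% the values ran from -1.10 (SE 0.691) to -2.79 (SE 0.773).

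**Figure D2:**
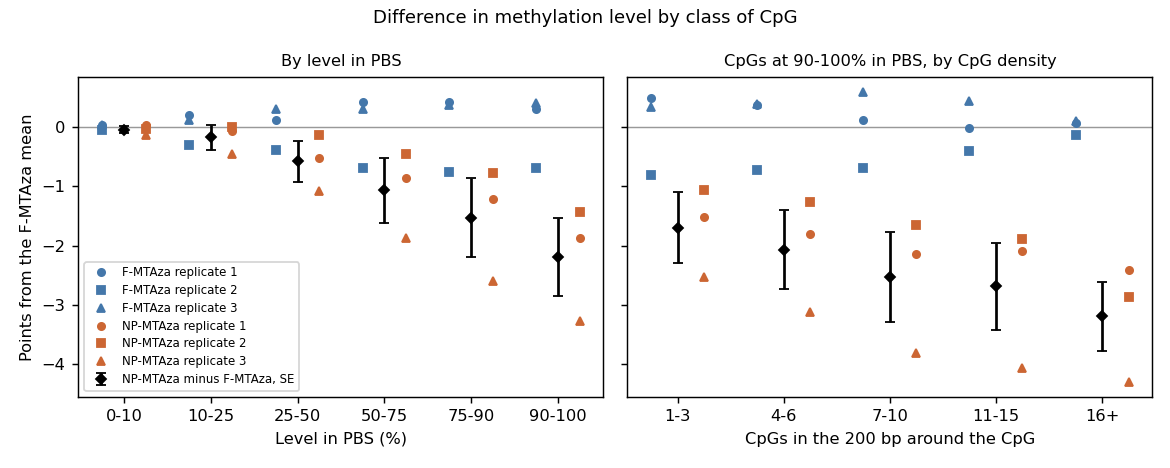
Distance of each library from the F-MTAza mean in percentage points (coloured symbols) and the difference of the group means with its SE (black diamonds), by level in PBS (left) and by the number of CpGs in 200 bp among CpGs at 90-100% in PBS (right). The difference widened from -0.0557 points at 0-10% to -2.19 points at 90-100%, and from -1.70 to -3.19 points with density.

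Locations in and around genes stood close together once the level in PBS was held. Over all CpGs, promoters, taken from 2000 bp before to 500 bp after a start site, differed by -0.754 points (SE 0.237), exons by -1.89 (SE 0.599), introns by -1.46 (SE 0.561) and intergenic CpGs by -1.39 (SE 0.507). Promoter CpGs were at 30.1% in PBS and exonic ones at 76.6%. Within the 90-100% class the same locations differed by -2.35, -2.46, -2.05 and -2.21 points. Promoter minus intergenic in that class was -0.141 points (SE 0.209; exact permutation p = 0.8), and the libraries overlapped. By distance to the nearest start site, the difference in that class was between -2.08 points at 1-5 kb and -2.36 points under 1 kb.

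The difference was found on all 20 chromosomes compared, the autosomes and X. It ran from -1.80 points on chromosome 13 to -1.18 points on chromosome 11, and the libraries did not overlap on 18 of them. CpGs of the X chromosome at 90-100% in PBS differed by -1.74 points against -2.20 points on autosomes (difference 0.459, SE 0.343; exact permutation p = 0.3). Mitochondrial CpGs, which are read as nearly unmethylated, went the other way: 0.298%, 0.289% and 0.239% in F-MTAza and 0.368%, 0.348% and 0.380% in NP-MTAza over 220 CpGs. The share of reads called methylated at these CpGs was thus not lower in NP-MTAza.

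The bases beside the CpG were compared in the 90-100% class, with both strands folded together. Of 10 such contexts, the one with A on both sides had the smallest difference, -1.82 points (SE 0.599). It was -2.51 points (SE 0.467) with G before and C after, and -2.99 points (SE 1.53) at CCGG. The latter is the site that MspI cuts to make the fragments, so these CpGs lie at the ends of fragments. There the levels were 58.7%, 55.5% and 57.8% in F-MTAza and 54.9%, 56.2% and 52.1% in NP-MTAza. The groups overlapped and every library was lower than over the class as a whole.

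Reads drawn in sets of 5 from 1 CpG were less often all methylated under micelle delivery. Sets of 5 put CpGs of different depth on the same footing, and the chance that all 5 are methylated was averaged over the 309520 CpGs at 90-100% in PBS. It was 17.0%, 16.1% and 17.8% in F-MTAza and 14.8%, 14.7% and 12.2% in NP-MTAza, a difference of -3.08 points (SE 0.980; exact permutation p = 0.1, no overlap). In the pooled PBS reads it was 84.0%. The chance of 2 methylated reads was 17.7% in F-MTAza and 19.5% in NP-MTAza, and that of 3 was 27.7% and 29.2%. CpGs with 0 methylated reads of 5 were at 1.60% and 1.71% (exact permutation p = 0.4). At 0 of 5 the groups overlapped. These chances also follow from the mean level of the class and are not a count of fully methylated CpGs.

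**Figure D3:**
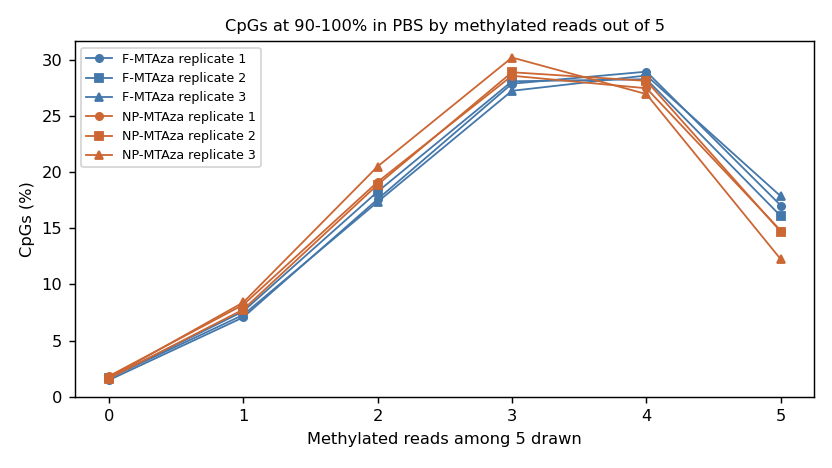
Percent of CpGs at 90-100% in PBS (vertical axis) by the number of methylated reads among 5 drawn (horizontal axis), 1 line per library. NP-MTAza (orange) lay below F-MTAza (blue) at 5 of 5 methylated reads, 12.2% to 14.8% against 16.1% to 17.8%, and above it at 1, 2 and 3.

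Read depth differed between the groups, because the NP-MTAza libraries were deeper. Total reads over listed CpGs were 25336747, 40390743 and 32907267 in F-MTAza and 38105573, 47709886 and 57671337 in NP-MTAza. At a shared CpG the median was 10 reads in F-MTAza and 16 in NP-MTAza. The depth of a CpG itself moved the difference little. It was -1.33 points (SE 0.459) at CpGs with under 10 reads on average, -1.32 (SE 0.469) at 10-20, -1.43 (SE 0.537) at 20-50, -1.68 (SE 0.534) at 50-200 and -1.73 (SE 0.485) at 200 or more.

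In the 90-100% class the difference was -2.14 points under 10 reads and -2.28 points at 20 or more, and these differed by 0.139 points (SE 0.0772; exact permutation p = 0.3). CpGs whose depth in both groups was within 20% differed by -1.32 points. The 88316 CpGs read deeper in F-MTAza differed by -1.27 points. When the reads of every library were thinned to the total of the shallowest, the difference over 370801 CpGs was -1.39 points. With each of these settings all NP-MTAza libraries stayed below all F-MTAza libraries (exact permutation p = 0.1).

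The total depth of a library nevertheless went with its level. The deepest library of each group, F-MTAza replicate 2 and NP-MTAza replicate 3, was also its lowest. Over the 6 libraries, level and total reads had Pearson's r = -0.898 (exact permutation p = 0.0194, adjusted 0.0472 over 6 correlations) and Spearman's rho = -0.771 (p = 0.103, exact permutation, adjusted 0.103). Without F-MTAza replicate 1 and NP-MTAza replicate 3, the libraries farthest from the median depth, r over the 4 others was -0.616 (exact permutation p = 0.375), so the relation as given rests on the libraries at both ends of depth. The groups differed in depth and in level, so part of r over the 6 libraries is the difference between the groups. Within groups, the slope was -1.10 points per doubling of reads in F-MTAza and -1.60 in NP-MTAza, from 3 libraries each. In PBS, the shallowest library was the highest, 65.7% against 64.3% in both others.

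The groups were 0.546 doublings apart in total reads. With the common slope within groups, -1.32 points per doubling over all CpGs, their difference at equal totals came to -0.629 points (SE 0.557). In the 90-100% class the slope was -1.75 points and the difference at equal totals -1.24 points (SE 0.783). At the densest CpGs of that class they were -1.53 points and -2.36 points (SE 0.689). There the slope was -0.296 points in F-MTAza and -3.10 in NP-MTAza, so the value at equal totals depends on the slope used. F-MTAza replicate 2 and NP-MTAza replicate 1 were the pair closest in total reads, with a ratio of 0.943. They differed by -0.585 points over all CpGs, -1.18 points in the 90-100% class and -2.27 points at its densest CpGs. Thinning left the difference as it was while total depth went with the level. What in a library sets both was not tested, and total depth and delivery cannot be fully told apart in 6 libraries.

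**Figure D4:**
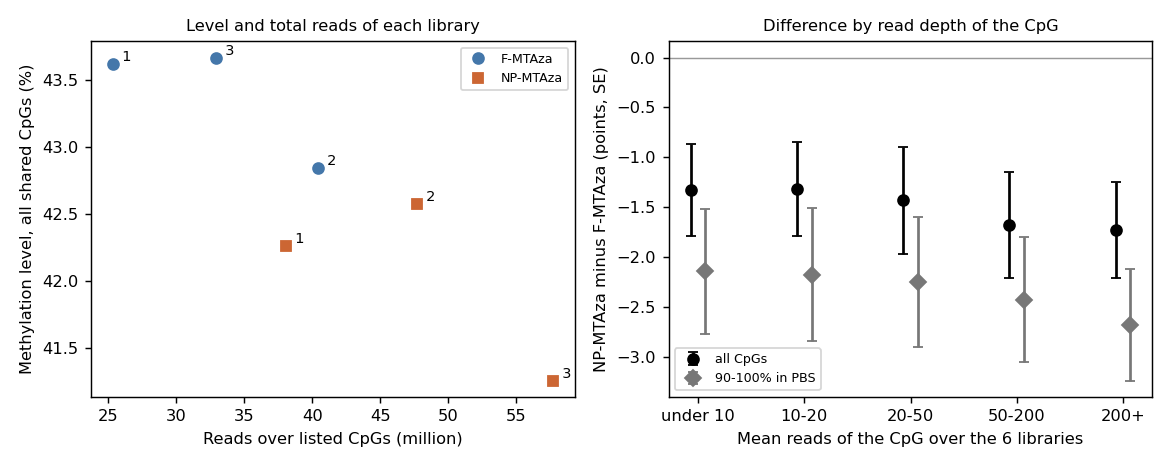
Left, methylation level over all shared CpGs in percent against the total reads of each library, numbered by replicate. Right, difference in points with its SE by the mean reads of the CpG, for all CpGs (black) and CpGs at 90-100% in PBS (grey). Level fell with total reads across libraries (r = -0.898), while the difference over all CpGs lay between -1.32 and -1.73 points in the 5 depth classes.

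Weights changed the size of the difference. It was -2.67 points with each CpG weighted by its reads in that library and -1.80 points with the same weight in every library, its mean reads over the 6. The 3610 CpGs with 200 or more reads held 51.5% of the reads in F-MTAza and 47.3% in NP-MTAza. These CpGs differed by -3.33 points with read weights and by -1.73 points with equal weights. NP-MTAza replicates 1 and 2 were made with 2 barcode sets and the other 4 libraries with 1. The library left without both, NP-MTAza replicate 3, differed from F-MTAza by -2.07 points, but it was also the deepest, so barcode sets and depth cannot be told apart here.

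The difference was spread over the genome in small steps. The genome was cut into 100-kb tiles, and 10601 tiles with 20 or more CpGs were compared. NP-MTAza was lower in 7417 tiles (70.0%), the median difference was -1.30 points, and the 5th and 95th percentiles were -6.59 and 3.43 points. The SD of the tile differences was 3.08 points, and that computed from pairs of libraries of the same group was 3.00 points. In the 150 tiles with 200 or more CpGs, 88.7% were lower in NP-MTAza and the SD was 1.34 points against 1.21.

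No tile passed limma's test at an adjusted p under 0.05, in either direction (0% of 10601). At an unadjusted p under 0.05, 712 tiles (6.72%) were lower and 110 (1.04%) higher in NP-MTAza. Tile differences hardly repeated between pairs of libraries that share no library: over the 18 such comparisons, Pearson's r across tiles was between -0.000136 and 0.0424. It was between -0.0144 and 0.0996 over the 1207 tiles of 1 Mb with 200 or more CpGs. These correlations are across tiles, which share their libraries and are not independent replicates.

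**Figure D5:**
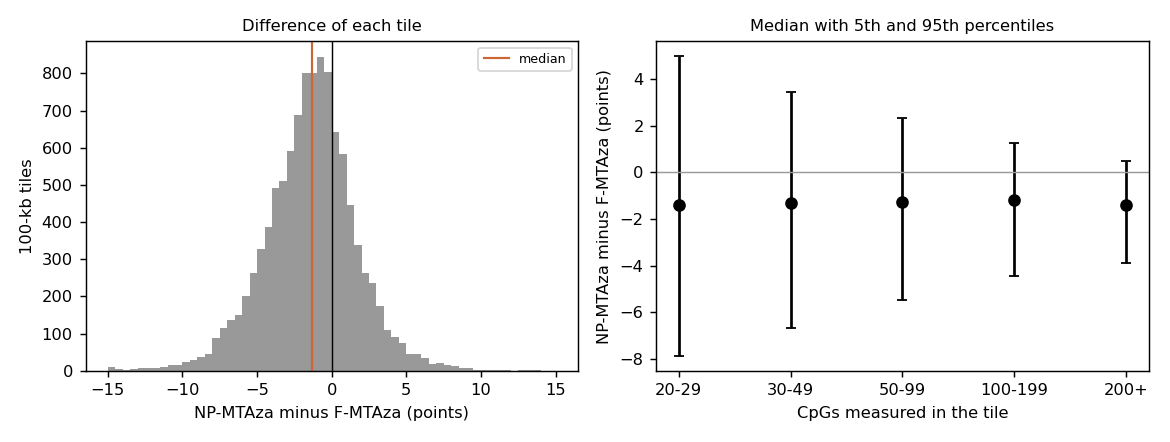
Left, number of 100-kb tiles by the difference NP-MTAza minus F-MTAza in points, with the median as an orange line and values beyond 15 points drawn at the end. Right, median difference with the 5th and 95th percentiles by the number of CpGs measured in the tile. The median stayed between -1.20 and -1.41 points while the range narrowed with more CpGs.

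Single CpGs showed the same picture. NP-MTAza was lower at 48.2% of the 717065 CpGs, equal at 11.6% and higher at 40.2%. The SD of the differences was 12.6 points, against 12.5 points computed from pairs of libraries within a group. In the 90-100% class, 57.1% were lower and 42.8% higher. At 4.95% of all CpGs every NP-MTAza library was below every F-MTAza library, and at 3.14% every one was above. With random labels, 3 libraries stand fully apart from 3 in a share of 0.1, both directions together, and ties lower it.

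Large differences at single CpGs were rare. With a likelihood ratio test of pooled reads, a change of 35 points or more and a q below 0.01, 146 CpGs (0.0204% of those tested) were lower and 76 (0.0106%) higher in NP-MTAza. The test does not count the spread between libraries. With a test allowing for that spread 0 CpGs passed, with 7181 lower (1%) and 3518 higher (0.491%) at an unadjusted p under 0.05. With limma 0 passed as well, with 23864 (3.33%) and 15309 (2.13%). Of the called CpGs, 138 lower and 72 higher ones had no overlap between the groups. Of those lower in NP-MTAza, 123 (84.2%) were at 75% or more in PBS, against 56.6% of all CpGs tested, with a median level of 88.0% in F-MTAza and 37.1% in NP-MTAza. Those higher had medians of 22.2% and 76.4%, and 55 of them (72.4%) were at 75% or more in PBS.

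By class, the share called lower was 0.0297% at 90-100% in PBS and 0.00075% at 0-10%, and the share called higher was 0.0103% and 0%. By location it was 0.00719% lower and 0.00216% higher in promoters, against 0.0258% and 0.0127% between genes. A CpG must stand at 35% or more in F-MTAza to be called lower. CpGs at 0-10% in PBS averaged 1.44% there, and promoter CpGs 21.3% against 46.8% between genes. These shares, and those by level in PBS above, are therefore partly set by the threshold. Median depth was 13.6 reads at the CpGs called lower, 12.1 at those called higher and 13.3 over all CpGs.

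Called CpGs of the same direction within 500 bp were joined, which gave 136 lower and 73 higher regions. Of these, 128 and 71 held a single called CpG. Only 2 lower regions and 1 higher region held 3 called CpGs, and none held more. Their mm9 sequences, plus strand, are printed with the tested CpGs in capitals, because they held the most called CpGs.
Prom2 exon, higher in NP-MTAza, chr2:127361301-127361400: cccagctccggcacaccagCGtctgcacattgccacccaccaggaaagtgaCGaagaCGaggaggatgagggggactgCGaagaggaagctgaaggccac
Intergenic on chromosome 12, lower in NP-MTAza, chr12:107865274-107865373: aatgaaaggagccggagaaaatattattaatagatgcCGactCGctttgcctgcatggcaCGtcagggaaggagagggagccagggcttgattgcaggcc
Intergenic on chromosome X, lower in NP-MTAza, chrX:139057508-139057607: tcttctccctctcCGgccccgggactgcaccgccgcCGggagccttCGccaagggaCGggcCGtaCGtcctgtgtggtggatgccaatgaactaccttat

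The Prom2 region lay in an exon, 5853 bp from the gene's start, and Prom2 encodes prominin 2, a membrane glycoprotein of epithelial cells. Its 4 tested CpGs were at 35.9%, 27.5% and 18.8% in F-MTAza and at 64.8%, 85.4% and 76.1% in NP-MTAza, a difference of 48.1 points. The groups did not overlap, but this was part of the rule that named the region and adds no support. The level was 83.5% in PBS, so NP-MTAza was near PBS and F-MTAza far below it. At the first CpG, 5 of 12, 1 of 10 and 3 of 8 reads were methylated in F-MTAza, and 10 of 14, 12 of 12 and 14 of 17 in NP-MTAza (q = 0.00552). The CpG at base 58 of the sequence was at 17.6% and 49.5% and did not pass (q = 0.186).

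The chromosome 12 region had Gm17033 as its nearest start, 68363 bp away. Its 3 CpGs were at 88.9%, 91.7% and 100% in F-MTAza and at 25%, 43.4% and 37.5% in NP-MTAza, a difference of -58.2 points. It rested on 5 to 13 reads per CpG and library. In PBS it was at 92.3%, so here F-MTAza was near PBS. Reads of neighbouring CpGs come from the same fragments, so the 3 CpGs of a region are not separate measurements.

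The chromosome X region lay 58392 bp from the start of Tmem164, a gene for a transmembrane protein. Its 6 tested CpGs were at 94.8%, 74.9% and 72.6% in F-MTAza and at 52.8%, 58.7% and 39.4% in NP-MTAza, a difference of -30.5 points, with 94.3% in PBS. The first of the 6 CpGs stood at 83.3% and 83.7% and did not pass the test (q = 0.938). The others were between 75.1% and 83.5% in F-MTAza and between 31.8% and 49.8% in NP-MTAza. Among them, the CpGs at bases 47 and 66 of the sequence did not pass either (q = 0.0331 and q = 0.0212).

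Regions with 2 called CpGs numbered 6 lower and 1 higher. The higher one lay between genes, 17610 bp from the start of Hc, at 32.7% ± 9.55 in F-MTAza and 72.2% ± 9.38 in NP-MTAza. Of the lower ones, 3 are named here, picked after their values were seen, so the genes beside them are no theme of the data. A region 480 bp from the start of Prkag3, a regulatory subunit of AMPK known from skeletal muscle, was at 93.4% ± 4.62 in F-MTAza and 58.7% ± 3.70 in NP-MTAza (SD, n = 3; 6 CpGs, chr1:74795266-74795365). A region in C230034O21Rik, 534 bp from the start of Fat4, was at 73.6% ± 12.3 and 24.5% ± 13.1 (4 CpGs, chr3:38785279-38785378). Fat4 is a large cadherin of planar cell polarity. A region 13519 bp from the start of Trpm6, a magnesium channel, was at 78.6% ± 1.40 and 52.0% ± 6.80 (4 CpGs, chr19:18810905-18811004). The groups did not overlap in these 3 lower regions, nor in any other region with 2 or more called CpGs. The CpGs were called for a difference in these same libraries, so this adds no support. In PBS the 3 lower regions were at 98.4%, 60.1% and 97.0%, so among them only the region near Fat4 stood higher in F-MTAza than in PBS.

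Promoters were compared by gene where they held 5 or more shared CpGs, which left 9410 genes. No promoter reached both 10 points and limma's adjusted p of 0.05 (0% in each direction), and the lowest adjusted p was 0.254. At an unadjusted p under 0.05, 366 promoters (3.89%) were lower and 216 (2.3%) higher in NP-MTAza. The median promoter was at 6.65% in F-MTAza and differed by -0.126 points. The 2738 promoters at 50% or more in PBS had a median difference of -1.85 points, and 61.4% of them were lower in NP-MTAza.

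Genes of uptake and drug handling came first among the lists examined. Of all 9410 promoters, 5070 (53.9%) were below and 3980 above F-MTAza. The libraries of both groups did not overlap at 877 of the 9410, in either direction, where random labels give a share of 0.1 if there are no ties. For endocytosis and lysosome, 15 of 28 promoters were measured, 11 below and 3 above F-MTAza, with a median of -0.278 points. Their median level was 0.743% in F-MTAza, near the floor, where direction tells little, and the groups overlapped at all of them. The promoter of Lamp2, a lysosomal membrane protein, was at 36.7%, 36.8% and 73.9% in F-MTAza and 29.7%, 40.5% and 46.3% in NP-MTAza, where 1 F-MTAza library stood far above the rest. For nucleoside uptake and Aza activation, 11 of 18 were measured, 7 below and 4 above, with a median of -0.392 points. Dctd, the dCMP deaminase, was at 58.7%, 54.6% and 43.9% in F-MTAza and 63.6%, 64.1% and 66.0% in NP-MTAza, higher by 12.2 points (SE 4.45) without overlap, and did not pass the test (limma adjusted p = 0.735).

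Slc29a1, an equilibrative nucleoside transporter, was at 44.9% ± 2.79 and 42.6% ± 8.94 (SD, n = 3), and Tk1, thymidine kinase, at 64.8% ± 12.9 and 56.6% ± 12.9. For metformin, AMPK and vasopressin, 9 of 23 were measured, 3 below and 6 above, with a median of 0.242 points. Prkag2, a regulatory subunit of AMPK, was at 61.8% ± 2.86 and 54.9% ± 6.37, and Aqp2, the vasopressin-regulated water channel, at 60.8% ± 22.8 and 62.9% ± 2.89. Their libraries overlapped.

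For the DNA methylation machinery, the target of Aza, 12 of 18 promoters were measured, 7 below and 5 above, with a median of -0.409 points. Their median level was 2.66% in F-MTAza. Uhrf1, which brings DNMT1 to replicated DNA, was at 11.2%, 18.8% and 17.4% in F-MTAza and 21.0%, 19.3% and 19.8% in NP-MTAza. These did not overlap, but the adjusted p was 0.788 (limma).

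Genes of polycystic kidney disease had 8 of 15 promoters measured, 5 below and 3 above, with a median of -0.150 points. Their median level was 2.27% in F-MTAza. Pkd1, for polycystin 1, was at 42.0%, 52.9% and 66.6% in F-MTAza and 47.2%, 52.2% and 53.4% in NP-MTAza over 6 CpGs, with the libraries mixed. Ganab, a subunit of glucosidase II, was at 22.3% ± 4.00 and 27.4% ± 2.92, and Ift88, of intraflagellar transport, at 3.93% ± 1.02 and 2.16% ± 0.911. Proximal tubule genes had 7 of 20 measured, 2 below and 5 above, with a median of 0.798 points. Among these, the sodium-glucose transporter Slc5a1 was at 36.4% ± 7.55 and 43.3% ± 4.96.

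Of 13 genes the study singles out, 10 were measured, 4 below and 6 above, with a median of 0.173 points. The study named them in view of results on these samples. For Daglb and the Gata2 and Foxa1 binding motifs it started from earlier human ADPKD data. Fgfr1, a fibroblast growth factor receptor, was at 35.8%, 35.1% and 30.2% in F-MTAza and 54.9%, 47.7% and 45.8% in NP-MTAza. It was higher by 15.7 points (SE 3.27) without overlap and had an adjusted p of 0.473 (limma). Wt1, a transcription factor of kidney development, was at 80.4%, 80.5% and 74.7% against 71.2%, 74.5% and 67.8%, a difference of -7.37 points (SE 2.71), with an adjusted p of 0.751 (limma).

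Myc, the cell growth regulator, was at 1.50%, 1.08% and 0.860% in F-MTAza and at 0.409%, 0.714% and 0.785% in NP-MTAza over 55 CpGs, without overlap. Pax2, Ebf1, Foxa1 and Daglb were under 7% in both groups, with differences between -1.85 and 0.722 points. Sall1 stood at 39.4% ± 4.66 and 39.8% ± 3.20, Gata2 at 33.0% ± 5.98 and 36.3% ± 5.77, and Gdnf at 52.1% ± 5.24 and 49.0% ± 11.3, and in all 3 the libraries overlapped.

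Germline genes, silenced by promoter methylation in somatic cells, had 13 of 20 promoters measured, 6 below and 7 above, with a median of 0.0788 points and a median level of 71.5% in F-MTAza. Piwil2, of the piRNA pathway, was at 53.1% ± 13.8 and 39.8% ± 11.5, and Asz1 at 79.2% ± 2.64 and 68.4% ± 13.2. Imprinted genes, methylated on 1 parental copy, had 12 of 29 measured, 6 below and 6 above, with a median of -0.0237 points. Zrsr1 was at 56.3% ± 12.7 and 42.0% ± 2.38, Meg3 at 32.7% ± 5.61 and 45.6% ± 7.15, and Peg3 at 19.6% ± 5.00 and 30.2% ± 7.47. None of the 9 lists held a promoter past the test, as none did among all promoters.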

How the data were processed

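Reduced representation bisulfite sequencing was used, on MspI fragments under 300 bp. Per the labels and methods, the authors used Trim Galore 0.4.4 for trimming and Bismark 0.20.1 with Bowtie2 for alignment to mm9. They merged strands and dropped CpGs covered by fewer than 5 reads. The deposited columns hold methylated over total reads and, cut to whole numbers, the percent methylated. Levels were recomputed from the reads. Positions were checked against mm9 (99.9669% at the C of a CpG). Genes came from GENCODE on mm9.

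CpGs were weighted equally. PBS classes needed 10 pooled PBS reads. Library values were compared by two-sided exact permutation tests, CpGs by a likelihood ratio test as in methylKit, promoters (5 CpGs) and tiles (20 CpGs) by limma 3.58.1 on the arcsine square root, with Benjamini-Hochberg adjustment. Tests were tried on simulated data. Scripts ran in R 4.3.3 and Python 3.11.15, with scipy 1.17.1, numpy 2.4.6, pysam 0.24.0, matplotlib 3.10.9 and pandas 2.3.3.

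Regions were named where 3 or more CpGs were called and the groups did not overlap, at most 5 per direction. Up to 8 promoters past the test per direction, the 3 largest promoter differences per list and every measured gene the study singles out were to be named. Some promoters that the rule names are not reported here. The members and gene lists were chosen with earlier results of these data known. The 3 Aza libraries were not used here. Alternatives changed weights, depth, CpG sets, classes, tests, thresholds, joining, tiles and libraries.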

Additional observations from a re-analysis of the deposited data

How the results depend on the processing

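Of 341 recomputed values of 30 results, 323 kept their direction and their side of the threshold of 0.05. For a count, the value had to lie within 1.5 times of the main one. Means and contrasts could not change side. The smallest exact p is 0.1 for 3 libraries against 3 or 2 against 3, and 0.25 for 3 pairs. For means and contrasts the tally therefore tells only of direction. Called promoters and tiles numbered 0 in both directions in every setting. The mean difference was between -2.67 points with read weights and -0.629 points with total reads held equal by the slope within groups. It was -0.763 points over every listed CpG of each library and -0.815 points without the shallowest and the deepest library, a setting chosen, like that of equal totals, after seeing the data. Leaving out each library in turn gave -1.61 to -0.952 points. With read weights promoters differed by -4.27 points and CpGs of density 4-6 by -3.09 points. Reversals were small: 0.000424 points at 0-10% in PBS and 0.0628 at 10-25% without the shallowest and the deepest library, 0.0841 for promoter minus intergenic at 10 reads, and -0.0612 for X minus autosomes with read weights. At 10 reads 66 CpGs were called lower and 26 higher, and without the shallowest and the deepest library 127 CpGs and 124 regions were higher. With limma or the test allowing for extra spread 0 were called in either direction. Leaving out each library gave 48 to 121 CpGs called higher and 48 to 115 regions, the lowest without F-MTAza replicate 2 and the highest without F-MTAza replicate 1, while more CpGs were tested. Same-numbered libraries did not deviate together (correlations -0.0282, -0.0126 and -0.0055). Libraries of different numbers had correlations from -0.0088 to 0.0202. With all values this small, the check does not settle whether the libraries were paired. With the number as a replicate block the mean difference had an exact sign-flip p of 0.25, the smallest that 3 pairs allow, and a Mantel-Haenszel test called 46 CpGs lower and 25 higher, while limma called 0 promoters and 0 tiles. Counting depth limits single CpGs: at a median of 10 reads in F-MTAza, a CpG's level in a library moves by several points with each read.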
